A study of Mus musculus with 10 samples.

Results

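The Notch receptors, ligands and targets of murine KPC orthotopic pancreatic tumors were compared between normoglycemic and hyperglycemic mice. The 10 members, of 55359 genes measured, are the receptors Notch1, Notch2 and Notch4, the ligands Jag1, Jag2, Dll1 and Dll4, and the target genes Hes1, Hey1 and Hey2. They were listed by gene symbol and matched through the mouse Ensembl identifier. No measured value was a criterion, though earlier results of these data were known. All 10 were found and all 10 had a mean high enough to be tested. Bulk RNA was sequenced from 5 tumors of mice on regular water (CTRL) and 5 tumors of mice given 30% dextrose in their water for 14 days (D30). Every mouse was a C57BL/6 host (C57BL/6 J in the study's methods) injected at 10 weeks of age, in the pancreas, with luciferase-expressing KPC K8484 cells, an established line of mouse pancreatic cancer. All tumors therefore derive from a single line growing in immunocompetent mice, and equal numbers of both sexes were stated for the orthotopic work. The sample titles call the tumors PDX, while the source label names KPC K8484 cells. Tumors are named here by their table column, N for CTRL and T for D30, since the column numbers could not be tied to single animals. The labels call each replicate a tumor and say nothing more of how they were kept separate, so that p-values measure the spread among these tumors.

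Notch signaling passes from cell to cell. A Delta-like or Jagged ligand on the sending cell binds a Notch receptor on its neighbor, the receptor is cut by an ADAM protease and then by gamma-secretase, and the freed intracellular domain enters the nucleus and joins the DNA-binding protein Rbpj to turn on genes of the Hes and Hey families. In blood vessels, Dll4 and Notch4 belong to the endothelium and the pathway sets tip against stalk and artery against vein, while in the pancreas Hes1 holds back acinar and endocrine differentiation. In bulk tumor RNA, fewer cells of a type and less RNA per cell cannot be told apart.

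None of the 10 members differed between D30 and CTRL tumors beyond the spread among tumors. Limma called 0 of 10 at an adjusted p under 0.05, against 678 of 24560 genes tested overall (2.76%), and edgeR and DESeq2 on the recovered reads also called 0. At an unadjusted p under 0.05 the count among members was again 0 by limma, against 17.3% of all genes tested. For 0 of 10 members did the D30 values lie wholly outside the CTRL values, which 6.19% of all genes did. Of the members, 8 had a lower and 2 (Dll1 and Notch4) a higher fitted level under D30. Their log2 fold changes had a median of -0.25, and those of all genes tested a median of -0.06. The smallest adjusted p was 0.398, for Hey1. The 95% intervals of the log2 fold change reached as far as -2.06 for Hey1 and 1.43 for Dll1, so that differences of more than 2-fold lay within them.

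**Figure D1:**
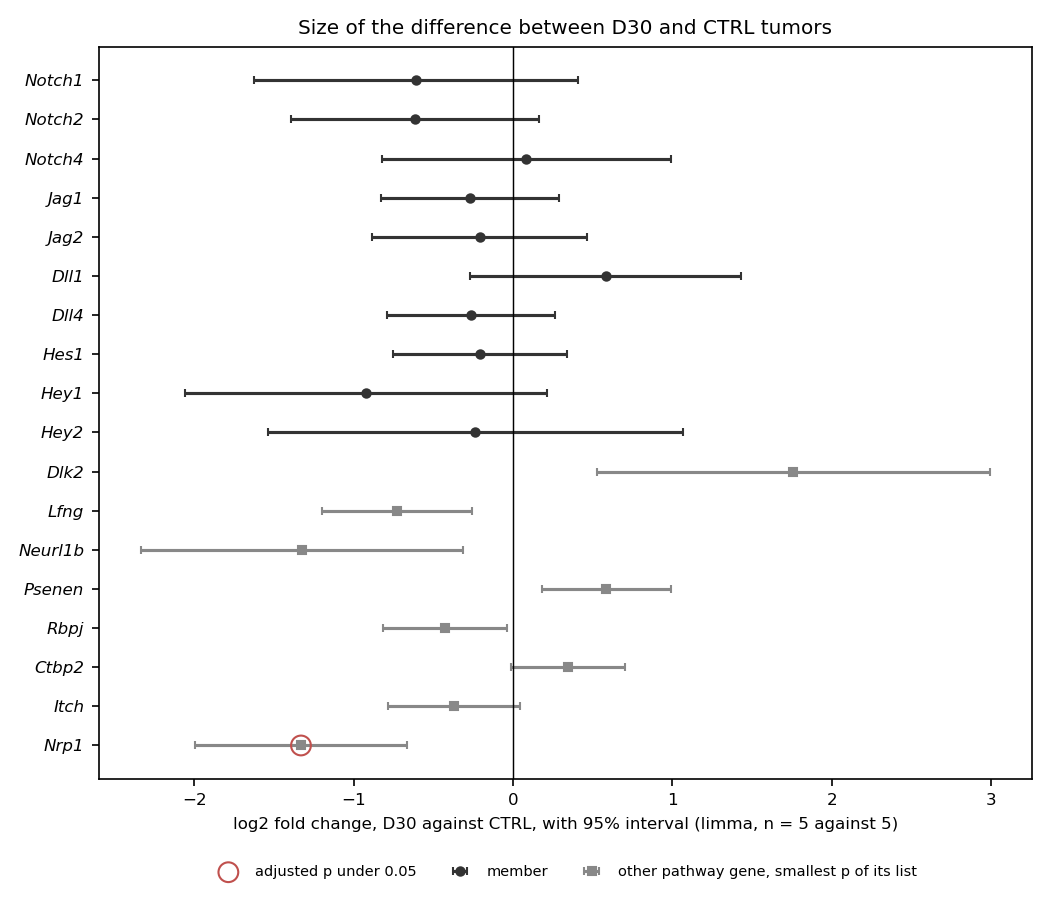
Log2 fold change of D30 against CTRL tumors (horizontal axis) for the 10 members (circles) and for the other pathway genes with the smallest p of their list (squares), with 95% intervals from limma on 5 against 5 tumors. The interval of every member crosses 0, and the ringed gene, Nrp1 at -1.33, is the 1 gene shown with an adjusted p under 0.05.

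Certain tumors stood apart. Recovered reads per tumor ranged from 29192261 to 42122304, and genes with reads from 23446 to 25912 in 9 tumors and 20482 in T5. T4, a D30 tumor, was the only tumor with reads of Y-linked genes (841 over 4 genes). The equal numbers of both sexes stated for the orthotopic work are thus not seen in these reads. Sex was not a term in the fit. Over 751 genes with at least 8000 bp of exon and at least 50% GC, the median log2 deviation from the mean of all tumors was -1.26 in T4 and -0.43 in N1, and lay between 0.06 and 0.35 in the other 8. The 3 receptor genes belong to this class by length and base composition, with 8061 to 14232 bp of exon and 53.6% to 61.2% GC. Summed levels of the 14 endothelial markers were 18403 to 27932 in CTRL and 9986 to 16218 in D30 tumors, with no overlap, and none of these markers was at 0 throughout a group. Without Cdh5, whose normalized count made up the largest part of the sum, the sums overlapped, from 10328 to 13725 in CTRL and 5538 to 11736 in D30 tumors, and 1 marker of the 14 had groups that did not overlap.

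Per kb of exon, the CTRL order of the members was Hes1, Jag1, Notch2, Dll4, Notch1, Dll1, Notch4, Jag2, Hey1 and Hey2. Hes1 stood at a normalized count per kb of 1329 ± 84.3 (SD, n = 5), Jag1 at 676 ± 106 and Notch2 at 389 ± 125, and the ranges of these 3 and of Dll4 (165 ± 24.2) did not overlap from each to the next. From Dll4 down to Hey1 (37.4 ± 15.1) each gene overlapped its neighbor in this order. Hey2, at 1.30 ± 0.588 per kb, lay below the range of Hey1 in CTRL tumors, and in D30 tumors the levels per kb came closest in T5. In D30 tumors the leading 3 were again Hes1 (1219 ± 399), Jag1 (595 ± 271) and Notch2 (267 ± 102), followed by Dll1 (182 ± 108). Hes1 exceeded Jag1 within each of the 5 D30 tumors although their ranges overlapped, and Dll1 exceeded its neighbor Dll4 in 2 of 5.

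The receptors came first. Notch1 (ENSMUSG00000026923.16, GRCm38 chr2:26457903-26516663, minus strand), which many epithelial, endothelial and immune cells carry, had normalized counts of 735, 1763, 1465, 2565 and 1931 in CTRL tumors N1, N2, N4, N5 and N6. In D30 tumors T1, T2, T4, T5 and T7 it had 1758, 1420, 272, 1369 and 1237. No D30 tumor reached the CTRL median of 1763, yet 4 of 5 lay within the CTRL range and only T4 fell below it. The means were 1692 ± 669 and 1211 ± 559 (SD, n = 5), and the log2 fold change by limma was -0.61 (SE 0.471, adjusted p = 0.551). Without T4 it was -0.13 (adjusted p = 0.837). Exons of 0610009E02Rik and Gm13568 overlap it on the opposite strand, and since the strand setting of the counting is not given in the sources used here, some of its reads may belong to them.

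Notch2 (ENSMUSG00000027878.12, chr3:98013527-98150361, plus strand) was the most abundant receptor per kb. Its normalized counts were 2283, 5387, 3706, 5581 and 4029 in CTRL and 3650, 3149, 987, 3637 and 2955 in D30 tumors, in the same order of columns. Again no D30 tumor reached the CTRL median of 4029, and T4 alone lay below the lowest CTRL tumor. The log2 fold change was -0.61 (SE 0.361, 95% interval -1.39 to 0.16, adjusted p = 0.413), and without T4 it was -0.26 (adjusted p = 0.536). An exon of the unconfirmed transcript Gm42820 overlaps it on the same strand.

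Notch4 (ENSMUSG00000015468.15, chr17:34564268-34588503, plus strand), the endothelial receptor, had 363, 838, 867, 690 and 697 in CTRL and 871, 704, 216, 1185 and 1079 in D30 tumors. T1, T5 and T7 were above every CTRL tumor and T4 below all of them, so the D30 values spread on either side of the CTRL range. The log2 fold change was 0.08 (SE 0.419, adjusted p = 0.945), and it turned negative under scaling by library size (-0.14), where the median of all genes tested also moved to -0.27. Without T4 it was 0.51 (adjusted p = 0.259) and without N1 it was -0.13. T4 and N1 held the lowest and second lowest value of each of the 3 receptors, as they did for the long GC-rich genes. The part of length and base composition was examined only by a correction of each tumor for them, after which Notch1 stood at -0.45 (adjusted p = 0.280), Notch2 at -0.45 (adjusted p = 0.177) and Notch4 at 0.18 (adjusted p = 0.636).

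**Figure D2:**
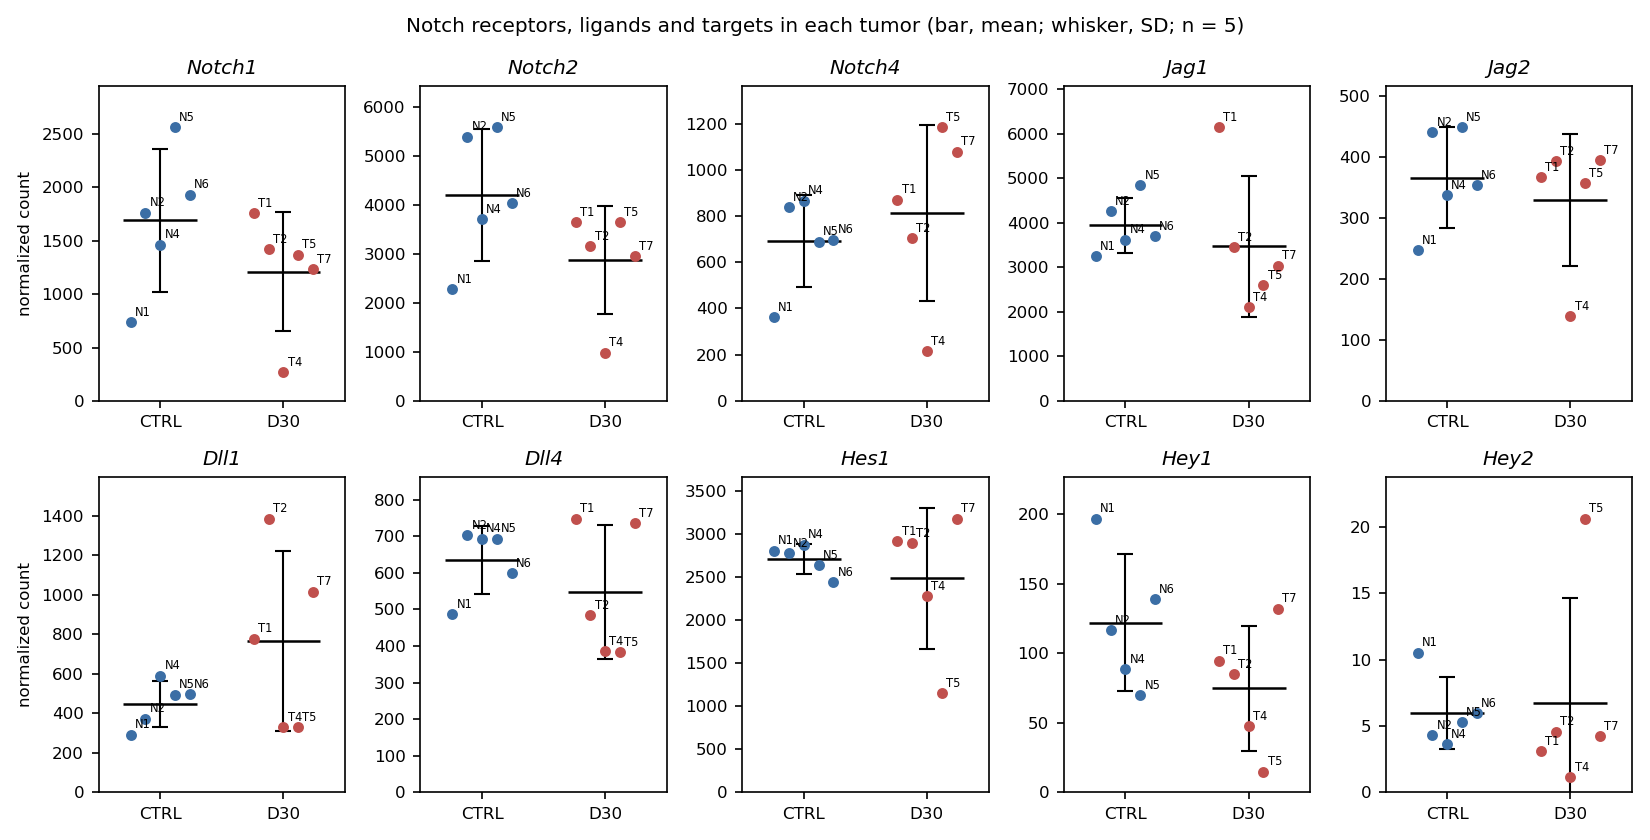
Normalized count of each member (vertical axes, linear and starting at 0) in 5 CTRL tumors (blue) and 5 D30 tumors (red), each point 1 tumor with its column name, with the group mean and SD (the lower whisker of Hey2 in D30 ends at the axis). By SD, D30 values spread more widely than CTRL values for every member except Notch1, Notch2 and Hey1, and the groups overlap in all 10 panels.

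As shares of the summed receptor level per kb, Notch2 made up 65.6% ± 3.17 in CTRL and 60.1% ± 4.17 in D30 tumors (SD, n = 5). Notch4 made up 14.7% ± 3.03, from 10.9% to 19.4%, in CTRL tumors and 21.8% ± 4.06, from 18.2% to 27.1%, in D30 tumors. The ranges overlapped through N4 at the top of the CTRL group and T1 and T2 at the bottom of the D30 group. Notch1 held 19.6% ± 3.06 and 18.1% ± 3.18. These shares are given as a description and were not tested. T4, whose receptor levels were the lowest, had a Notch4 share of 19.5% and a Notch2 share of 66.6%.

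**Figure D3:**
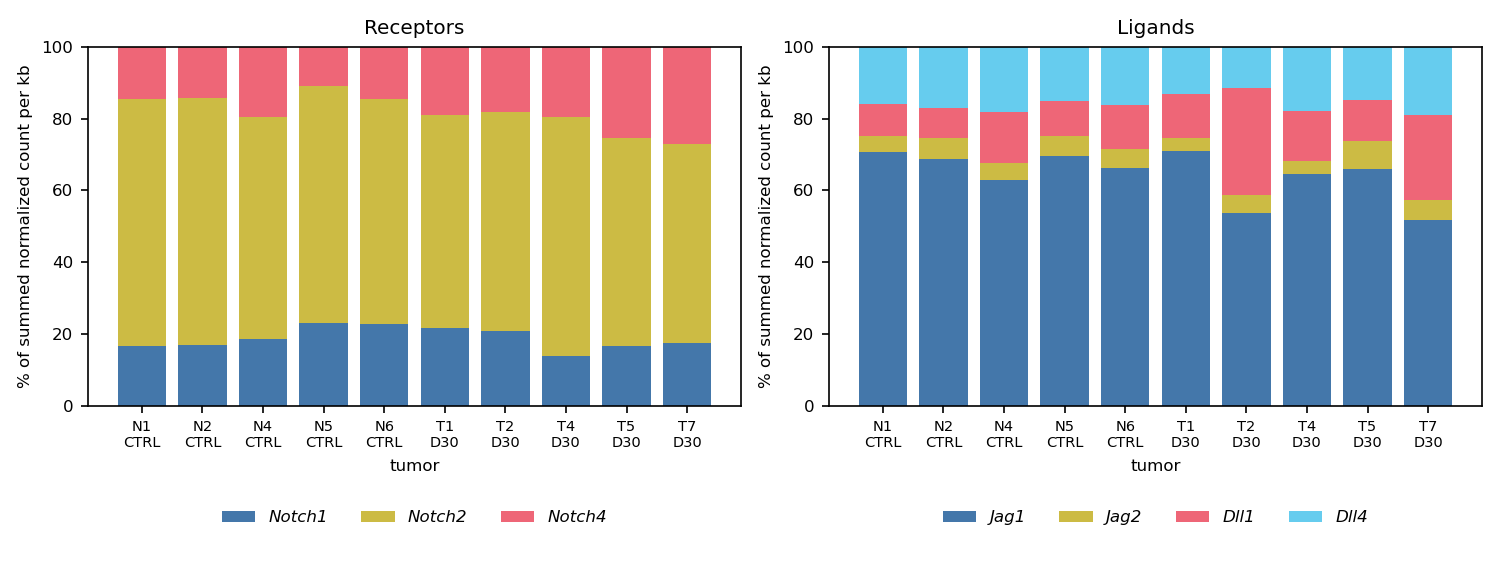
Share of each receptor (left) and each ligand (right) in the summed normalized count per kb of its role, in percent, with 1 stacked bar per tumor. Notch2 and Jag1 take the largest share in every tumor, Notch4 reaches 25.3% in T5 and 27.1% in T7, and Dll1 reaches 29.8% in T2 and 23.8% in T7.

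Among the ligands, Jag1 (ENSMUSG00000027276.8, chr2:137081456-137116644, minus strand), which tumor, stromal and endothelial cells can express, was the most abundant per kb. It had 3257, 4266, 3622, 4837 and 3706 in CTRL and 6144, 3448, 2102, 2600 and 3038 in D30 tumors. T1 was the highest of all 10 tumors, while T4, T5 and T7 lay below every CTRL tumor. The D30 SD of 1579 compared with 619 in CTRL, and the log2 fold change was -0.27 (SE 0.259, adjusted p = 0.641). It was -0.50 without T1 (adjusted p = 0.217) and -0.12 without T4. Jag2 (ENSMUSG00000002799.7, chr12:112907819-112929776, minus strand) ranged from 247 to 449 in CTRL tumors, and 4 D30 tumors lay between 357 and 394. The exception was T4 at 139, and the log2 fold change of -0.21 (SE 0.312, adjusted p = 0.781) became 0.08 without T4.

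Dll1 (ENSMUSG00000014773.14, chr17:15367354-15376872, minus strand), a ligand of epithelial progenitors and of some endothelium, had 292, 373, 590, 494 and 496 in CTRL and 778, 1385, 330, 329 and 1015 in D30 tumors. T1, T2 and T7 were above every CTRL tumor, and T4 and T5 lay in the lower part of the CTRL range. The means were 449 ± 117 and 767 ± 455 (SD, n = 5), with a log2 fold change of 0.58 (SE 0.395, 95% interval -0.27 to 1.43, adjusted p = 0.486 by limma). With T4 and T5 left out, Dll1 was higher in D30 by 1.24 on the log2 scale (adjusted p = 0.00646 by limma). It was the single member called of 10, near the 9.97% of all genes tested that this fit called. T4 and T5 were the lowest D30 tumors for Dll1, and the D30 tumors kept were all above every CTRL tumor. This fit alone therefore cannot show a difference. Leaving out T4 or T5 alone gave 0.83 in each case, with an adjusted p of 0.184 and 0.279, and without T2 it was 0.31 (adjusted p = 0.713). Exons of A930024N18Rik overlap Dll1 on the opposite strand. As a share of the ligand level per kb, Dll1 was 10.7% ± 2.47 in CTRL and 18.3% ± 8.09 in D30 tumors, with overlapping ranges of 8.29% to 14.1% and 11.5% to 29.8%.

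Dll4 (ENSMUSG00000027314.7, chr2:119325784-119335962, plus strand), the ligand of vascular tip cells, had 487, 703, 693, 694 and 599 in CTRL and 749, 485, 386, 383 and 736 in D30 tumors. Values fell on either side of the CTRL range, with T1 and T7 above it and T2, T4 and T5 below it. The log2 fold change was -0.26 (SE 0.244, adjusted p = 0.631), and it was -0.15 without T4 and -0.15 without T5. Exons of Gm14207 overlap Dll4 on the opposite strand.

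Of the targets, Hes1 (ENSMUSG00000022528.9, chr16:30064384-30067796, plus strand), a repressor of differentiation genes, was nearly level across the CTRL tumors at 2806, 2774, 2875, 2642 and 2440. D30 tumors had 2918, 2890, 2276, 1155 and 3179. T1, T2 and T7 were slightly above every CTRL tumor, T4 slightly below, and T5 far below all others. The SD was 172 in CTRL and 813 in D30, the fitted log2 fold change was -0.21 (SE 0.254, adjusted p = 0.728), and without T5 it was 0.05. Hey1 (ENSMUSG00000040289.9, chr3:8663359-8667256, minus strand), a vascular Notch target, had 197, 116, 88.6, 69.9 and 139 in CTRL and 94.6, 84.8, 47.4, 14.9 and 132 in D30 tumors. N1 was the highest and T5 the lowest, and T4 and T5 lay below the CTRL range. Its log2 fold change of -0.92 was the largest in size among the members and had an SE of 0.526 and an adjusted p of 0.398, and without T5 it was -0.44.

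Hey2 (ENSMUSG00000019789.10, chr10:30832359-30842801, minus strand), known for arterial endothelium, rested on 1 to 18 reads per tumor. Its normalized counts were 10.5, 4.34, 3.65, 5.31 and 5.99 in CTRL and 3.08, 4.58, 1.16, 20.6 and 4.26 in D30 tumors. T5 was the highest and T4 the lowest of all 10, and the remaining D30 tumors lay at or under 4.58. The log2 fold change of -0.24 (SE 0.602, adjusted p = 0.882) was 0.18 by DESeq2, so its sign is not settled at this depth. In T5 Hes1 and Hey1 were thus lowest and Hey2 highest of the 10 tumors.

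**Figure D4:**
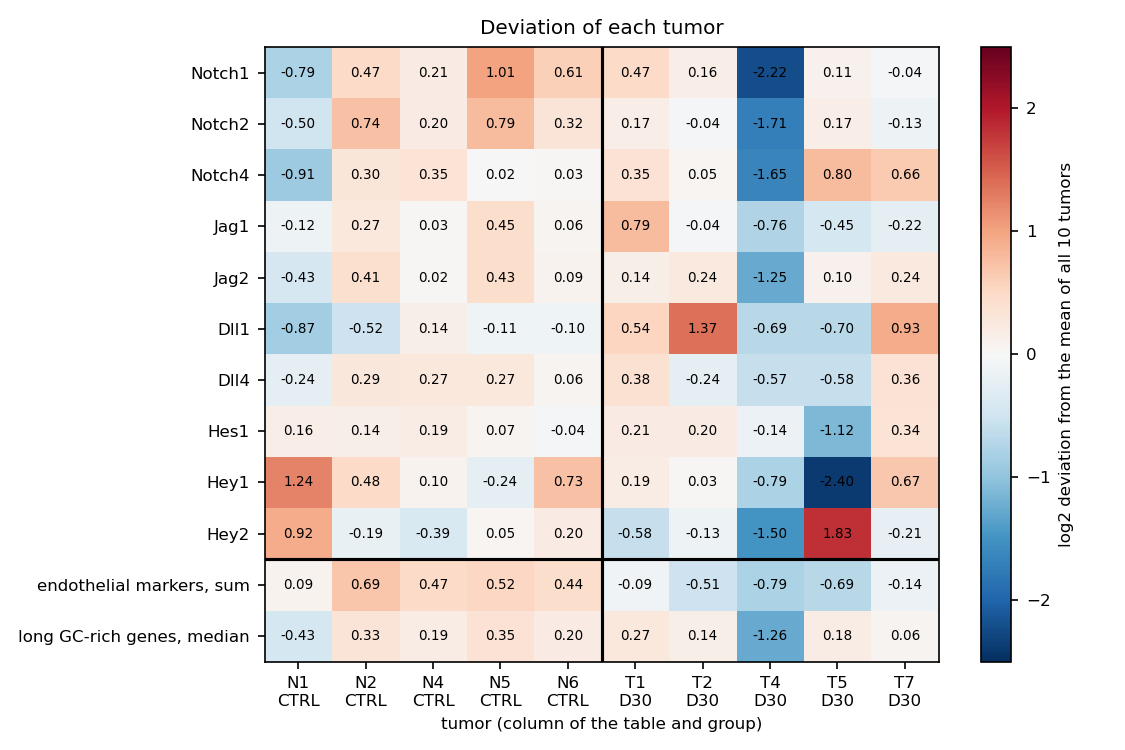
Log2 deviation of each tumor (columns) from the mean of all 10 tumors for each member (upper rows), for the sum of the 14 endothelial markers and for the median of long GC-rich genes (lower rows), red above and blue below. All 10 members are below their mean in T4, the receptors at -2.22 to -1.65, while T5 departs most in Hey1, Hey2 and Hes1.

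The Rbpj core motif TGGGAA was looked for in the promoter windows of the members, since the target genes are read out through Rbpj. RefSeq windows (GRCm38.p6) of 250 bases before to 50 after a start site were found for 8 of the 10 members, Hes1 and Hey1 being the other two. On both strands (TGGGAA or TTCCCA), the motif was in the window of Hey2 and in none of the other 7 members, and 25.6% of all 32851 windows held it. Hey2's window had 2 matches, as did or exceeded 3.79% of windows. It is printed to show where the matches lie, 5′ to 3′ on the minus strand, chr10:30842774-30843033, in lower case with the matches in capitals, from 250 bases before the start site to 10 after it.
Hey2: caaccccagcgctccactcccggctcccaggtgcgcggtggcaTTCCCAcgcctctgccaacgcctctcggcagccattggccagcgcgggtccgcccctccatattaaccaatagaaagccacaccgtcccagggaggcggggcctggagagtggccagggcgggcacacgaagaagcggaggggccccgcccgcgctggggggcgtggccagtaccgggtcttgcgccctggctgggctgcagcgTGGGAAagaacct
The first match printed, in the reverse orientation, covers bases -207 to -202 and the other covers bases -3 to 3 around the start site. A match describes the letters only, and the gene that carries it had the lowest level of the 10.

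Within-tumor ratios set members against each other free of the scaling of the tumor. The log2 ratio of Jag1 over Dll4 was 2.63 ± 0.160 in CTRL and 2.62 ± 0.387 in D30 tumors (SD, n = 5), and the two-sided exact permutation test over every assignment of the labels gave p = 0.984. Notch1 over Notch2 was -1.35 ± 0.267 and -1.34 ± 0.315 (exact permutation p = 0.968). The smallest p this design can give is 0.00794. The ratios of a ligand pair and of a receptor pair thus had nearly the same means in the groups, while the D30 tumors ranged from 2.04 in T7 to 3.04 in T1 for the ligand pair.

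Notch4 was also set against the endothelial markers, as the difference between its log2 level and their mean log2 level in the same tumor. This was -1.20, -0.20, 0.06, -0.14 and -0.28 in CTRL and 0.28, 0.46, -1.08, 1.99 and 0.38 in D30 tumors. All D30 tumors except T4 were above every CTRL tumor, and N1 and T4 stood apart from the rest of their groups on the low side. The means were -0.35 ± 0.491 and 0.40 ± 1.09 (SD, n = 5), and the difference of 0.75 did not pass the exact permutation test (p = 0.214, 0.643 adjusted over the 3 ratios). Without adjustment over the 3 ratios, the outcome changed with T4 and with the correction for base composition. Without T4 the difference was 1.12 (exact permutation p = 0.00794, the smallest possible). That p was fixed by leaving out the only D30 tumor not above every CTRL tumor, so it is no support for a difference. With any other single tumor left out, the exact permutation p was 0.206 to 0.444. After correction for GC and length the difference was 0.78 (exact permutation p = 0.0159). Without T4 and T5 it was 0.72 (exact permutation p = 0.0536) and did not pass, and without T5 alone it was 0.36 (exact permutation p = 0.389).

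**Figure D5:**
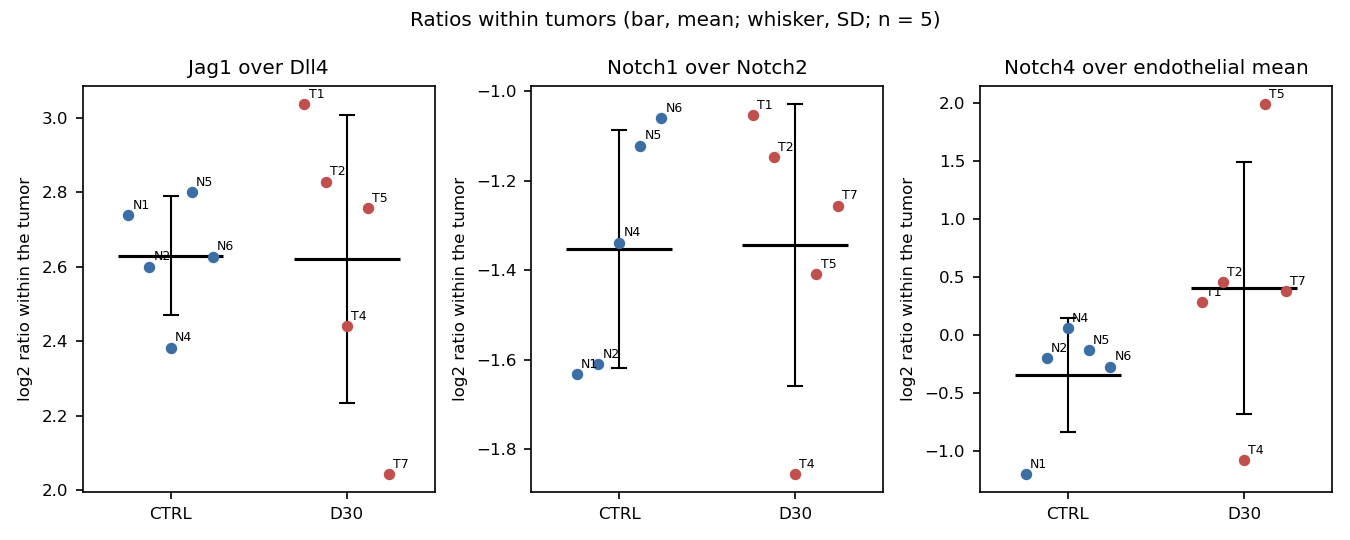
Log2 ratio within each tumor (vertical axes) for Jag1 over Dll4, Notch1 over Notch2, and Notch4 over the mean of 14 endothelial markers, in CTRL (blue) and D30 (red) tumors with mean and SD. The first pair of ratios have nearly equal means, and in the last 4 of 5 D30 tumors lie above all CTRL tumors with T4 at -1.08.

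The endothelial markers themselves leaned lower. Of 14 endothelial markers, 13 had a lower fitted level in D30 tumors, 7 at an unadjusted p under 0.05, and 1 was called. Of all 24560 genes tested, 13434 had a lower fitted level, 17.3% had an unadjusted p under 0.05 and 2.76% were called. The called endothelial marker was Cdh5, the endothelial cadherin, at 11945 ± 2931 in CTRL and 4437 ± 1367 in D30 tumors (SD, n = 5). Its log2 fold change was -1.45 (SE 0.265, adjusted p = 0.0117 by limma). The median of the endothelial list was -0.63, against -0.06 for all genes tested. The lean was not particular to the endothelium. Fitted levels were lower for 8 of 8 fibroblast (median -0.91), 8 of 8 T cell (-0.86) and 7 of 8 macrophage markers (-0.83). Epithelial and neutrophil markers went the other way, with 8 of 10 and 6 of 6 fitted higher. Among markers of endothelial states, limma called 1 lower of 8 arterial genes (Nrp1), 0 of 5 venous genes and 0 of 8 tip cell genes. Aplnr, a venous receptor, had the smallest p of its list (log2 fold change -2.14, adjusted p = 0.119), and Adm, made by tip cells and in hypoxia, that of the tip list (2.02, adjusted p = 0.126 by limma, 0.00104 by DESeq2).

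Marker lists of other cell types were summed in the same way, with no test of the sums. Summed tumor epithelial markers were 263495 to 391741 in CTRL and 405998 to 597352 in D30 tumors, and fibroblast markers were 74860 to 133272 and 26586 to 100944. Mural markers spanned 5422 to 7628 and 2872 to 6652, and macrophage markers 26456 to 57343 and 11673 to 67841. The D30 macrophage maximum was T4, where Lyz2 held 46217. The macrophage sums of T1, T2, T5 and T7 were 11673 to 21943, below every CTRL tumor. Acinar markers ranged from 274 to 59992 in CTRL and 144 to 5510 in D30 tumors, where Amy2a5 was at 0 throughout. Islet markers ranged from 11.5 to 1488 and from 0 to 83.6, with Sst and Iapp at 0 in every D30 tumor. Amy2a5 and Sst were near the floor in CTRL tumors as well. Amy2a5 was at 0 in N1, N4 and N5 and at most 10.3, and Sst at 0 in N4 and N5 and at most 5.13. Neutrophil markers ranged from 637 to 2950 in CTRL and from 781 to 13833 in D30 tumors, with 6 of 6 fitted higher, 4 of them at an unadjusted p under 0.05, and a median log2 fold change of 1.81. T cell, B cell, neutrophil and adipocyte lists had 0 called markers by limma, as had the mural, fibroblast and acinar lists. Limma called 1 of 10 epithelial (Cldn7), 2 of 8 macrophage (Csf1r and Cd163) and 3 of 6 islet markers (Ins1, Gcg and Iapp), all lower, where 2.76% of all genes tested were called. Yet 8 of the 10 epithelial markers were fitted higher, 7 at an unadjusted p under 0.05, with a list median of 0.62. Epcam (-3.17) and Cldn7 (-2.59) were fitted lower. Of all genes tested, 45.3% were fitted higher and 17.3% had an unadjusted p under 0.05. The part of cell composition in the levels of the members was not tested.

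The rest of the pathway was read from 77 further genes, of which 72 were tested and the rest were too low. Limma called 0 higher and 1 lower, with 4 higher and 5 lower at an unadjusted p under 0.05, and 29 had a higher and 43 a lower fitted level (median log2 fold change -0.10). Over all genes tested the shares were 2.76% called and 17.3% at an unadjusted p under 0.05. The counts among the 72 pathway genes are too small to be told from these shares, and no set test was run. D30 and CTRL values did not overlap for 2 pathway genes on the higher and 2 on the lower side, of 72 tested. Over all genes tested, 6.19% did not overlap. The call was Nrp1, a co-receptor for VEGF and semaphorins that is listed as a target and as an arterial gene. Its normalized counts were 1157, 1530, 1015, 1620 and 1508 in CTRL and 976, 649, 415, 268 and 616 in D30 tumors. Every D30 tumor lay below every CTRL tumor, and Nrp1 was lower by a log2 fold change of -1.33 (SE 0.308, adjusted p = 0.0358 by limma). The call was kept by edgeR and DESeq2 but lost when N1, N2, N4, N5, N6, T2 or T7 was left out, with adjusted p from 0.00525 to 0.113 over all alternatives. Without T4 and T5 its log2 fold change was -0.88. Fitted levels of 13 of the 14 endothelial, 8 of 8 fibroblast and 7 of 8 macrophage markers were also lower in D30 tumors. Of 10 epithelial markers, 8 were fitted higher. The part of these cell types in the level of Nrp1 was not tested.

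Lfng, the Fringe enzyme that adds sugar to Notch receptors and shifts their choice between Delta and Jagged ligands, had the smallest p of the 5 glycosyltransferases. It had 1373, 1856, 1335, 1730 and 1579 in CTRL and 897, 1078, 1172, 584 and 1126 in D30 tumors. The groups did not overlap, as in 6.19% of all genes tested. The log2 fold change of -0.73 (SE 0.218, adjusted p = 0.101) did not pass the limma test. It passed under library-size scaling, by DESeq2, without T4, without T4 and T5, and without N1 and T4. The other 4 glycosyltransferases, Pofut1, Poglut1, Mfng and Rfng, also had 0 calls, where 2.76% of all genes tested were called.

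At the cell surface, Dlk2, a non-canonical ligand, was at 2.64 ± 0.863 in CTRL and 15.3 ± 16.6 in D30 tumors (SD, n = 5), above every CTRL tumor in 5 of 5 and led by T5 at 44.6. Its log2 fold change was 1.76 (SE 0.570, adjusted p = 0.128 by limma, 0.0171 by DESeq2). Neurl2 had groups that did not overlap either, as in 6.19% of all genes tested (25.8 ± 6.92 and 43.1 ± 6.54, adjusted p = 0.276 by limma). It belongs to the Neuralized family of ubiquitin ligases that includes regulators of ligand endocytosis. Its relative Neurl1b was at 640 ± 195 and 297 ± 168 with a log2 fold change of -1.32 (adjusted p = 0.165 by limma, 0.0446 after GC and length correction), and without T4 and T5 it was -0.56 (adjusted p = 0.194). Of all genes tested, 45.3% had a higher fitted level in D30 tumors and 2.76% were called. Of the 10 proteases that process ligand-bound or maturing receptors, 7 had a higher fitted level in D30 tumors and 0 were called. Psenen, a gamma-secretase subunit, came nearest at 1511 ± 263 and 2267 ± 372 (log2 fold change 0.59, adjusted p = 0.125 by limma).

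In the nucleus, 0 of 8 activators and 0 of 12 corepressors were called, where 2.76% of all genes tested were called. Lists this short cannot tell 0 calls from that share. Rbpj itself stood at 4780 ± 553 in CTRL and 3597 ± 743 in D30 tumors (SD, n = 5), with 4 of 5 D30 tumors below the CTRL range and T5 within it, and a log2 fold change of -0.42 (SE 0.181, adjusted p = 0.248 by limma). For Rbpj this was -0.61 without T4 and T5 (adjusted p = 0.0166) but -0.16 after GC and length correction (adjusted p = 0.649). The corepressor Ctbp2 was at 0.35 on the log2 scale (adjusted p = 0.299). Among 11 negative regulators 0 were called, the smallest p being that of Itch, a ubiquitin ligase (-0.37, adjusted p = 0.352).

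Other targets were mixed. Heyl, a target in mural cells, was at 218 ± 31.9 in CTRL and 101 ± 92.7 in D30 tumors, down to 9.16 in T5, with a log2 fold change of -1.78 (adjusted p = 0.190 by limma). Gata3, a transcription factor, was at 24.2 ± 19.98 and 78.7 ± 37.9, with a log2 fold change of 1.81 (adjusted p = 0.140), and it was called by DESeq2, without T4, and without T4 and T5. Neurog3, an endocrine progenitor gene that Hes1 represses, was listed at 0 in 9 tumors and at 16.0 in T5, the tumor with the lowest Hes1.

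By Pearson correlation of log2 levels over the 10 tumors, among 17360 genes with a mean of at least 10, the genes most like Notch2 were Abl1 (r = 0.992), Arhgef40 (0.992) and Pik3r2 (0.992). Those most like Jag1 were Gm36989 (0.985), Dcp1a (0.969) and Gm42890 (0.967), and those most like Hes1 were Pdss2 (0.987), Wrb (0.978) and Gm42984 (0.974). The points share the tumors' scaling, depth and base composition, and single tumors such as T4 and T5 weigh heavily in so few points, so these values are a description.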

How the data were processed

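Strand-specific libraries were made from total RNA of 10 tumors. The authors trimmed reads with Trim Galore, aligned them with STAR 2.7.0e and list DESeq2 and RSEM as software used. The build is GRCm39 in the submitters' processing notes and hg38 in the paper, while the deposited table holds mouse Ensembl identifiers. The annotation release and the strand setting of the counting are not given in the sources used here. The values deposited are a normalized signal, 1 for each gene in each tumor, of the form count over size factor. Reads were recovered from it, and 100% of values were whole within 0.1. N columns were taken as CTRL by their letter and T columns as D30 as the only other group. Identifiers were matched to GENCODE M21 (GRCm38), which named 94.1% of 55359, and gave positions, exon lengths and GC. Length per kb is union exon length.

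Limma 3.58.1 (R 4.3.3) with a mean-variance trend was fitted on log2(normalized count + 1) to 24560 genes with a mean of at least 1. This scale understates the fold of low genes. Benjamini-Hochberg adjustment covered all genes tested, with calls at an adjusted p under 0.05. As alternatives, the recovered reads went into edgeR 4.0.16 with its quasi-likelihood test and into DESeq2 1.42.0. Others were pseudocounts of 0.5 and 5, no filter, a mean of at least 10, other scalings and tumors left out. Scripts were tested on simulated data. Ratios were compared by exact permutation. All 10 members were named, together with each called pathway gene or otherwise the smallest p of a list, and Cdh5, Neurl2, Heyl, Gata3 and the called markers of other cell types were named after their values were seen. Members and lists were chosen with earlier results of these data known. Some items are not reported here.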

Additional observations from a re-analysis of the deposited data

Results flagged for a closer look

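In 26 groups of 5 tumors (10 members and 3 ratios in each condition), 4 had a highest or lowest tumor whose gap to its nearest neighbor took up more than 0.71 of the range of the group, where chance gives about 1 in 20. The normalized count of Notch2 in T4 was 987, with the next D30 tumor at 2955. Jag2 in T4 was 139, with the next D30 tumor at 357. Hey2 in T5 was 20.6, with the next D30 tumor at 4.58. The log2 ratio of Notch4 over the endothelial mean was -1.20 in N1, with the next CTRL tumor at -0.28.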

How the results depend on the processing

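No paired analysis was possible because the table's columns do not carry the replicate numbers of the labels. The count of members called remained 0 under each alternative except without T4 and T5, where it was 1 (Dll1). T4 and T5 were the lowest D30 tumors for that gene. The count of other pathway genes called was 2 under library-size scaling, 4 by DESeq2, 8 without T4 and T5, 3 without N1 and T4, 2 after GC and length correction, and 0 to 3 when single tumors were left out. All genes called numbered 1858 by DESeq2, 2418 without T4 and T5, 1584 without N1 and T4 and 1156 after GC and length correction, and 279 (without N2) to 1573 (without T4) with single tumors left out. The split of calls was 344 higher and 334 lower, against 240 and 624 under library-size scaling and 457 and 250 by edgeR with TMM. The last pair of settings, without N1 and T4 and the GC and length correction, were added after seeing the data.

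Signs turned for members that were never called. Notch4 was -0.14 under library-size scaling and -0.13 to 0.51 with single tumors left out, Jag2 -0.34 to 0.078, Hes1 -0.32 to 0.048 and Hey2 -0.72 to 0.11. Without T4 and T5, Jag1 was 0.039, Jag2 0.10, Dll4 0.033 and Hes1 0.15. Hey2 was 0.18 by DESeq2 and 0.31 without N1 and T4. The difference in Jag1 over Dll4 (-0.0085) was -0.11 to 0.14 with single tumors left out, 0.0062 without T4 and T5, 0.064 without N1 and T4 and 0.14 after GC and length correction. That in Notch1 over Notch2 was -0.064 to 0.14 with single tumors left out. That in Notch4 over the endothelial mean was 0.36 to 1.12 with single tumors left out, and 0.72 without T4 and T5. Without N1 and T4, the lowest of their groups in this ratio, it was 0.91 (exact permutation p = 0.0286, the smallest possible there). As without T4 alone, that p was fixed by leaving out T4. After GC and length correction it was 0.78 (exact permutation p = 0.0159). The p-values of these settings were not adjusted over the 3 ratios. The cause was not tested. Hey2, at 1 to 18 reads, is limited by depth.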
